A study of Mus musculus with 24 samples.

Results

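The effect of the fasting mimicking diet (FMD) given without chemotherapy was examined in the spleens of 12 leukemic mice, 6 on FMD (mice 7, 8, 9, 11, 26 and 34) and 6 fed ad libitum (AL, mice 2, 3, 6, 25, 32 and 33), out of 24 mice in the series. The mice were chosen by their group label alone, and 16557 of 46078 genes, those with a mean rlog of at least 3.32 over the 24 mice, were compared. The rlog is a log2 value of expression shrunken towards the mean of a gene. A difference of 1 is a 2-fold change in these shrunken values, and 3.32 is the log2 of 10 reads. All 12 mice were male C57BL/6J, 20 weeks old and on standard chow, and had received 10000 GFP-expressing BCR-ABL pre-B leukemia cells 7 days before treatment began. FMD mice had 4 cycles of 3 days on the diet, with 50% of normal calories on day 1 and 10% on days 2 and 3, each followed by up to 4 days of refeeding, and AL mice had chow throughout. Both groups received vehicle in place of vincristine (VC), which the FMD + VC and AL + VC mice, 6 of each, received at 0.5 mg/kg once a week.

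Spleens were taken at the end of treatment, and how long before this the mice last had the diet or were refed is not stated. The leukemia is 1 transplanted cell line, and the values are of whole spleen, in which fewer cells of a type and less RNA per cell cannot be told apart. Markers of B cells, T cells, macrophages and red pulp erythroid cells were all present, and 0 of 11 exocrine pancreas genes and 2 of 10 adipocyte genes reached the minimum. The mean of these 2 adipocyte genes was 8.25 in FMD mouse 8 and 7.50 in AL mouse 6. In the rest of the FMD and AL mice it was between 4.71 and 6.18. Among the AL mice, mouse 32 stood apart, at -75.5 on the first principal component (47.6% of the variance), where the other 11 mice lay between -37.2 and 31.9. Where leaving out 1 mouse, or AL mouse 32 and FMD mouse 9 together, moved a list median much, that value stands beside it, and leaving out both was chosen after seeing the data. Expression of Xist, which silences an X chromosome in female cells, was high in all 12 of these male mice, between 12.42 and 15.28 in FMD and between 13.88 and 15.68 in AL.

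Fasting lowers insulin and IGF-1, releases fatty acids and ketone bodies, and raises glucocorticoids, which act on lymphocytes through a nuclear receptor and its target genes. In rodents a lack of food also shrinks lymphoid organs, slows erythropoiesis, and shifts the clock genes of peripheral tissues, and refeeding reverses much of this. The spleen of a mouse makes red cells and granulocytes as well as holding B and T cells, and here it also held leukemia cells.

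Small nucleolar RNAs guide the modification of ribosomal and other RNAs, and total RNA libraries retain them. Snord15a (chr7:99482785-99482932, minus strand of GRCm38, 148 bases) is of the box C/D kind, which directs methylation of ribose. Snora78 (chr17:24719676-24719803, minus strand) is of the box H/ACA kind, which directs the change of uridine to pseudouridine. They are shown because the values of both are described later and because the boxes in capitals are what sets the kinds apart: the C box TGATGA starting within the first 30 bases and the D box CTGA ending within the last 30 bases in Snord15a, and ACA placed 3 bases before the end in Snora78. The sequences are those of GENCODE M21, in which 22.5% of 1558 snoRNA and scaRNA transcripts have such a C box, 60.1% such a D box and 19.3% such an ACA.
Snord15a: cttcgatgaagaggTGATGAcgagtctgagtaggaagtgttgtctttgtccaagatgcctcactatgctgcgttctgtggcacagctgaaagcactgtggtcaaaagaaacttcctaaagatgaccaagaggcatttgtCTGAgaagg
Snora78: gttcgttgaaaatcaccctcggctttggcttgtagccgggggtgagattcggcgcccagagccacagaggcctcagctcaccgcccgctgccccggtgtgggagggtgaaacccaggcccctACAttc

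No gene passed the test between FMD and AL spleens. Of 16557 genes 0 had an adjusted p under 0.05 in limma (percent called 0, smallest adjusted p = 0.934). At an unadjusted p under 0.05 there were 707 genes (4.27%), of which 390 (2.36%) lay above and 317 (1.91%) below 0. The FMD minus AL difference ran from -1.18 to 1.21 on the log2 scale, and it was past 0.5 in either direction in 418 genes and past 1 in 6. Its median over all genes was -0.02, and 45.3% of genes lay above and 54.7% below 0. The 95% interval of the difference had a median half-width of 0.32. It lay between -1 and 1 for 93.5% of genes and between -0.5 and 0.5 for 59.9%. For the other genes the interval reached past these limits. The interval is that of shrunken values, which understate the differences of low genes. It does not bound the fold change of low genes in expression.

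In the other fits of the same contrast, a fit of FMD and AL mice alone called 1 gene and a fit with weights for each library (limma's arrayWeights) called 2, while every other fit, including the 12 without 1 mouse, called 0. The gene called in the fit of the 12 mice was 9630013D21Rik, a non-coding RNA gene, at 5.26, 5.26, 5.21, 5.23, 5.4 and 5.60 in FMD mice and at 6.19, 6.20, 6.86, 6.68, 6.46 and 6.20 in AL mice. All FMD mice were below all AL mice, with a difference of -1.10 (adjusted p = 0.0414 in limma in that fit, 0.0414 to 1 over the other settings). With weights in limma, Mrps21, which encodes a protein of the mitochondrial ribosome, was called at 0.55 (adjusted p = 0.0449), as was the unnamed transcript RP23-45G4.2 at 0.56 (adjusted p = 0.033). These weights ran from 0.146 for AL mouse 32 and 0.366 for FMD mouse 9 to 3.29 for AL mouse 2 and 3.10 for FMD mouse 26. In the mice given vincristine, which are in the same fit, they ran from 0.27 for AL + VC mouse 17 to 7.29 for FMD + VC mouse 29.

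**Figure D1:**
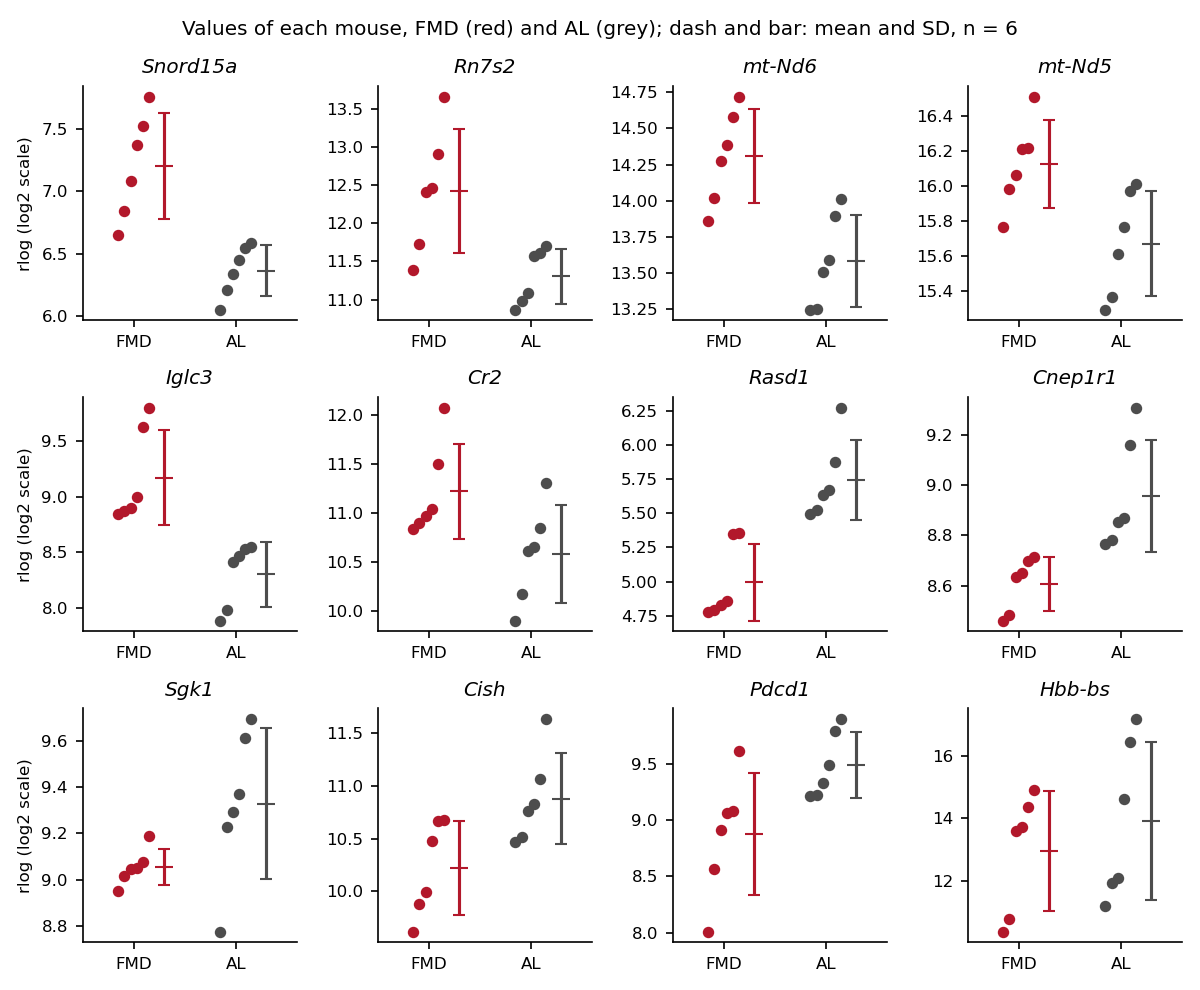
Values of 12 genes in each mouse, with rlog (log2 scale) on the vertical axis. Points are mice, sorted by value within FMD (red, left) and AL (grey, right), and the dash and bar beside them are the mean and SD of the 6 mice. Snord15a and Iglc3 lie higher in all FMD than in all AL mice and Rasd1 and Cnep1r1 lower, while Hbb-bs spans 10.37 to 14.92 in FMD and 11.19 to 17.18 in AL.

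In 38 genes (0.23% of 16557) the groups did not overlap, 24 (0.145%) with all FMD mice above all AL mice and 14 (0.0846%) with all FMD mice below. An exact two-sided permutation test of any one of these gives p = 0.00216, the smallest that the 924 relabellings of 12 mice allow, which is not adjusted for the number of genes. The share of genes without overlap, 0.23%, is near the fraction that relabelling alone gives. Nothing is therefore read from their number, and the separation of a gene is given as a description. Rasd1 (chr11:59963181-59964944), a small GTPase first found as a dexamethasone-induced gene, had the smallest unadjusted p of the named genes. It was at 4.79, 5.36, 4.86, 4.78, 4.83 and 5.35 in FMD mice and at 5.49, 6.27, 5.63, 5.87, 5.52 and 5.67 in AL mice. The difference was -0.75 (95% interval -1.10 to -0.40, unadjusted p = 0.000159 from limma, adjusted p = 0.934), and it ran from -0.82 to -0.64 in the fits without 1 mouse. The forkhead gene Foxn2 and Cnep1r1, a subunit of a phosphatase of the nuclear envelope, also lay below in all FMD mice, with differences of -0.18 and -0.35.

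By the naming rule the other genes below 0 were Spry1, an inhibitor of RAS signalling, at -0.56, the splicing regulator Ptbp2 at -0.38, the nuclear receptor corepressor Nrip1 at -0.32, the calcineurin subunit Ppp3cb at -0.26, Atg14 at -0.27 and the Golgi sugar transporter Slc35a3 at -0.21. Above 0 stood Snord15a, mt-Nd6 and Iglc3, described below, with Rmrp, the RNA of RNase MRP, at 0.60, the retinoid X receptor gene Rxrg at 0.66, Lurap1l at 0.64, Sfxn4, a mitochondrial carrier family gene, at 0.51, Zmat1 at 0.49 and Ccdc91 at 0.41. All of these had an adjusted p of at least 0.934 in limma.

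**Figure D2:**
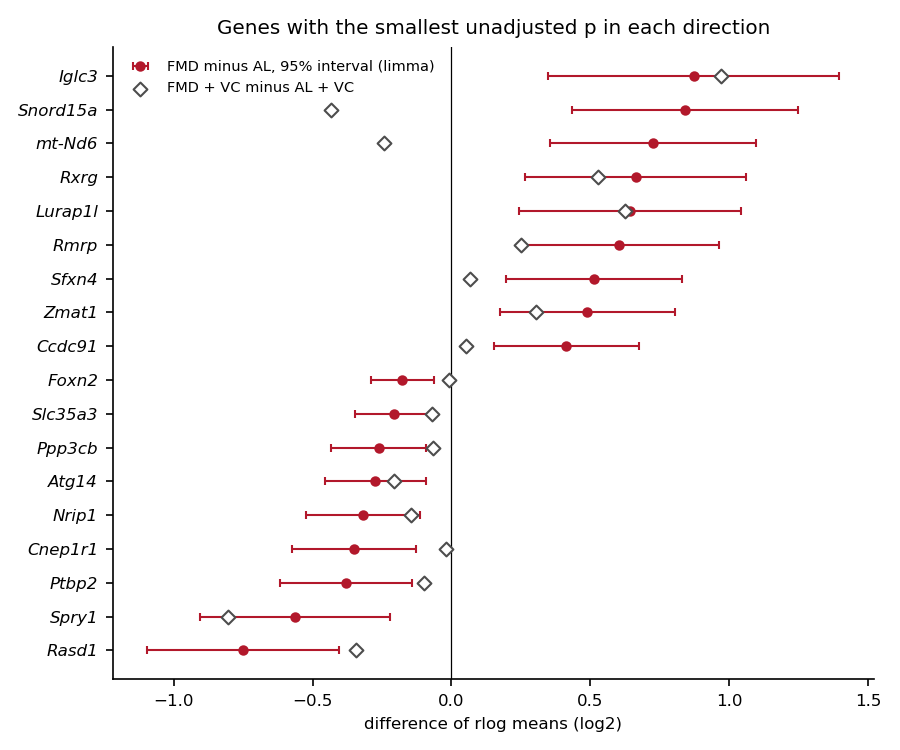
The genes named by rule above and below 0 for their small unadjusted p, 9 in each direction, with the FMD minus AL difference and its 95% interval (red, log2) and the FMD + VC minus AL + VC difference (open diamonds). The intervals leave out 0 by the choice of the genes, and the diamonds of Snord15a (-0.43) and mt-Nd6 (-0.24) lie on the other side of 0.

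Many small structured RNAs lay above 0 in FMD spleens, and none passed the test. Of a list of 32 such RNAs tested 27 were above 0 (45.3% over all genes) and 12 had an unadjusted p under 0.05 (4.27% over all genes). The median difference was 0.27 against -0.02 over all genes. The list was put together after the values were seen, so that these counts follow in part from the choice and are given as a description. The annotated class of snoRNAs shares members with this list, so that it is not independent of it. Of its 47 genes 72.3% were above 0 and 10 (21.3%) had an unadjusted p under 0.05, with a median of 0.16. The 12983 protein-coding genes had a median of -0.03, with 42.1% above 0 and 3.80% under 0.05. Snord15a was at 6.65, 6.84, 7.76, 7.52, 7.38 and 7.08 in FMD mice and at 6.59, 6.34, 6.55, 6.21, 6.05 and 6.45 in AL mice. All FMD mice were above all AL mice, with a difference of 0.84 (95% interval 0.43 to 1.25, unadjusted p = 0.000285 from limma, adjusted p = 0.934). Its value was lowest in FMD mouse 7 and highest in FMD mouse 9.

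The signal recognition particle RNA, 7SL, which takes ribosomes to the endoplasmic reticulum, has several gene copies, of which Rn7s2 and Rn7s1 had the largest differences among the 32 structured RNAs. Rn7s2 (300 bases) was at 11.72, 12.41, 13.66, 12.91, 12.46 and 11.38 in FMD mice and at 11.61, 10.98, 11.70, 11.58, 10.87 and 11.09 in AL mice, a difference of 1.12 (95% interval 0.30 to 1.95). Its transcript is identical to that of Rn7s1 (0.92), so that reads cannot be assigned to one of them, and Rn7s6 was at 0.87. FMD mice 7 and 34 lay near or within the AL values and FMD mouse 9 was highest for all of them. Of the other members Snord17 was at 0.87, Snora23 at 0.60, Snora78 at 0.51, the Cajal body RNA Scarna6 at 0.47 and Rmrp at 0.60, each with an unadjusted p under 0.05. Rn7sk, which holds the elongation factor P-TEFb inactive and is itself an abundant structured RNA, was at 0.03 (95% interval -0.24 to 0.30), at 17.42 to 17.77 in FMD mice and 17.33 to 17.86 in AL mice, and at -0.02 without AL mouse 32. The list median was 0.21 with the level of Gm26917 as a covariate and 0.20 without AL mouse 32 and FMD mouse 9, where 25 of 32 were above 0. Gm26917, an abundant non-coding RNA on which reads of unremoved ribosomal RNA can fall, took 12.7% to 30.4% of the summed expression in FMD mice and 9.73% to 25.6% in AL mice, with FMD mouse 9 highest in its group, and its part in these values was not tested.

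Transcripts of the mitochondrial genome, which encodes 13 subunits of the respiratory chain and ATP synthase, were higher in FMD than in AL spleens in mean, without passing the test. Of 12 measured 11 were above 0, with a median difference of 0.41, and 8 had an unadjusted p under 0.05, against 390 of the 7498 genes above 0. mt-Nd6, the subunit of complex I encoded on the light strand, was at 14.02, 14.27, 14.58, 14.72, 14.39 and 13.86 in FMD mice and at 14.01, 13.59, 13.89, 13.51, 13.25 and 13.24 in AL mice. FMD mouse 34 alone fell within the AL values, and the difference was 0.72 (95% interval 0.35 to 1.09, unadjusted p = 0.000488 from limma, adjusted p = 0.934). mt-Nd5 was at 15.98, 16.06, 16.21, 16.51, 16.22 and 15.77 in FMD mice and at 16.01, 15.77, 15.97, 15.61, 15.37 and 15.29 in AL mice, a difference of 0.46. FMD mice 7 and 34 were within the AL values, and AL mouse 33 was lowest. Differences were 0.49 for mt-Cytb, 0.43 for mt-Co2, 0.42 for mt-Co1, 0.41 for mt-Nd4, 0.38 for mt-Nd2, 0.37 for mt-Atp6, 0.31 for mt-Nd1 and -0.01 for mt-Co3, the last of which changed sign in some other fits. With quantile normalization mt-Nd1 was at 0.001, mt-Cytb at 0.23 and mt-Co1 at 0.26, while mt-Nd4 was at 0.50 and mt-Nd6 at 0.855. The median of the list was 0.34 in that fit.

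Of 26 nuclear oxidative phosphorylation genes 4 were above 0 and 22 below, with a median of -0.12 and none under an unadjusted p of 0.05, among them the complex IV subunit gene Cox6c at -0.24 and the complex III subunit gene Uqcrc2 at -0.27. That median was -0.05 without AL mouse 32 and -0.02 without FMD mouse 9 as well, where 11 of 26 were above 0. The mitochondrial median was 0.38 without AL mouse 32 and FMD mouse 9 (12 of 12 above 0), 0.25 with library weights and 0.43 with the erythroid mean added to the model. The 10 mitochondrial ribosomal and transfer RNAs tested, chosen after their values were seen, all lay above 0, with a median of 0.35. These RNAs are cut from long common precursors and share their source, so that the members are not independent of each other. Nuclear copies of mitochondrial sequence can take some of the reads, and without a stated strand setting the reads of mt-Nd6 and of the opposite strand cannot be told apart.

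**Figure D3:**
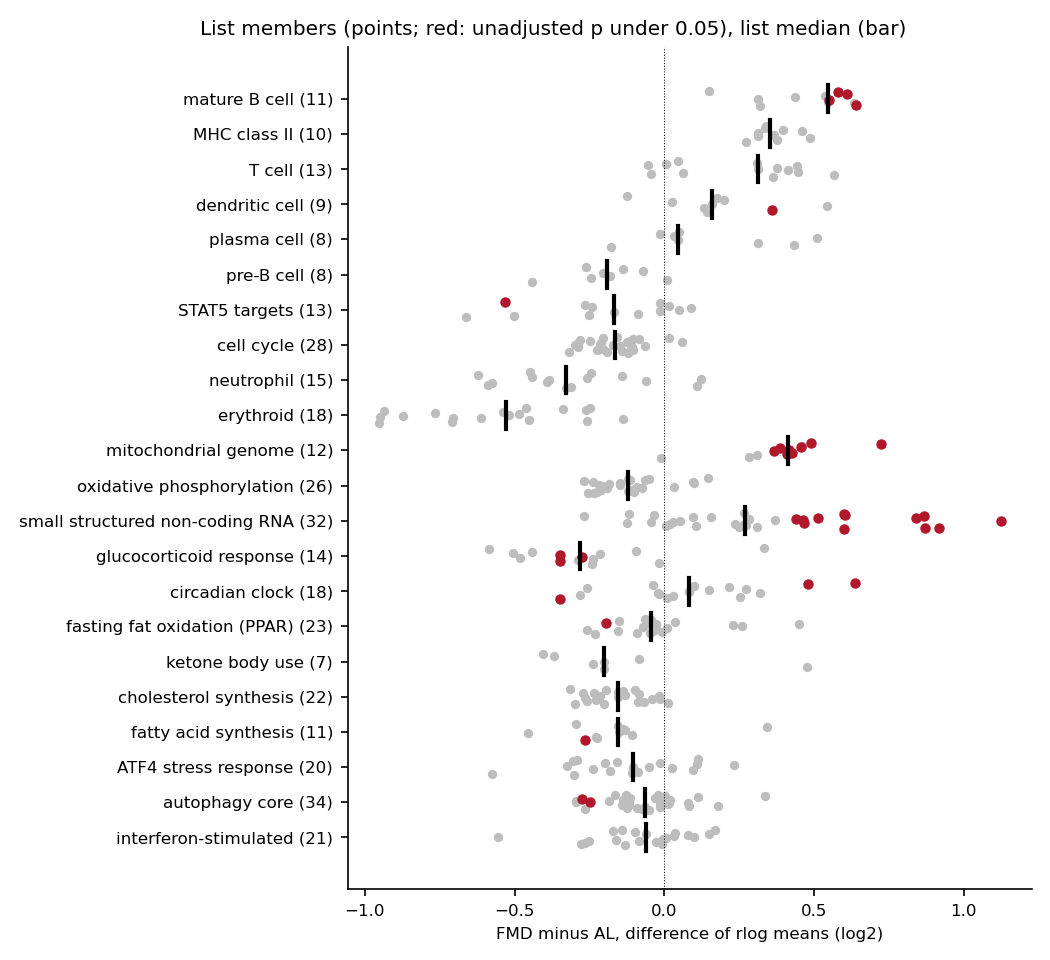
FMD minus AL difference (log2) of the members of 22 lists, with the number of tested members in brackets. Points are genes, red where the unadjusted p was under 0.05, and the black bar is the median of the list. The medians of mature B cell (0.55) and mitochondrial genome (0.41) members lie farthest above 0 and that of the erythroid members (-0.53) farthest below, with no red erythroid point.

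Genes of mature B cells were higher in the mean of FMD spleens, and none passed the test. Of 11 members 11 were above 0, with a median of 0.55, and 4 had an unadjusted p under 0.05, against 390 of the 7498 genes above 0. These were Cr2, the complement receptor CD21, at 0.64, Ms4a1, which encodes CD20, at 0.61, the inhibitory receptor gene Cd22 at 0.58 and the adaptor gene Bank1 at 0.55. Cr2 was at 10.89, 10.83, 12.07, 11.04, 11.50 and 10.97 in FMD mice and at 11.30, 10.65, 10.61, 9.90, 10.16 and 10.84 in AL mice. The groups overlapped, with FMD mouse 9 highest and AL mouse 25 lowest. The mean of the 11 genes was 10.22, 10.12, 11.26, 10.40, 10.40 and 10.13 in FMD mice and 10.41, 9.97, 9.94, 9.76, 9.61 and 9.95 in AL mice. AL mouse 2 was above 5 of the 6 FMD mice. The median of the list was 0.34 without FMD mouse 9, 0.28 without FMD mouse 9 and AL mouse 32 (10 of 11 above 0), and 0.21 with library weights.

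Immunoglobulin lambda constant genes, which the light chains of a minority of mouse B cells use, did not overlap between the groups. Iglc3 was at 9.63, 8.84, 9.80, 9.00, 8.90 and 8.87 in FMD mice and at 8.53, 8.41, 8.47, 8.55, 7.88 and 7.98 in AL mice, a difference of 0.87 (95% interval 0.35 to 1.40, unadjusted p = 0.00222 from limma, adjusted p = 0.934). Iglc2, a near-identical gene between which reads can be split, was at 0.63 and did not overlap either. Ighd, which encodes the heavy chain of IgD on mature B cells, was at 0.54 (95% interval -0.03 to 1.10). Of 131 immunoglobulin V segments tested 82.4% were above 0 against 45.3% of all genes, with a median of 0.27, and 16 (12.2%) had an unadjusted p under 0.05 against 4.27%. Reads can be split between similar V segments. Of the 10 genes of MHC class II presentation 10 were above 0, with a median of 0.35 and 0 under 0.05, from Ciita, the master regulator of the class, at 0.46 and H2-Ob at 0.49, down to 0.27. That median was 0.22 without AL mouse 32, 0.10 without FMD mouse 9 as well, and 0.04 with library weights.

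T cell genes gave a median of 0.31, with 11 of 13 above 0 and none under 0.05. Cd4 was at 0.45 (95% interval -0.28 to 1.17), Cd8a at 0.38 (-0.42 to 1.17) and Cd3e, a chain of the receptor complex, at 0.41 (-0.42 to 1.24). The mean of the T cell genes was lowest in AL mouse 32 (7.34), and the list median was 0.16 without this mouse and 0.03 without FMD mouse 9 as well. As a covariate, Xist gave a T cell median of 0.15, and Vpreb1 and Igll1 gave 0.27. Pdcd1, which encodes the inhibitory receptor PD-1 of activated T cells, had the other sign, at 8.91, 9.07, 8.01, 8.57, 9.08 and 9.61 in FMD mice and at 9.49, 9.79, 9.90, 9.22, 9.21 and 9.33 in AL mice. Only FMD mouse 34 was within the AL values, and the difference was -0.62 (95% interval -1.18 to -0.06, unadjusted p = 0.0322 from limma, adjusted p = 0.934). The 9 checkpoint and regulatory T cell genes tested, Pdcd1 among them, had a median of 0.13, with 6 above and 3 below 0. That median was -0.08 without AL mouse 32. Egr3, an immediate-early transcription factor of stimulated lymphocytes, was at 0.71 (95% interval 0.02 to 1.40), with 5 of 6 FMD mice above all AL mice. It was the highest of 18 immediate-early genes, of which 7 were above and 11 below 0, with a median of -0.07. Of the dendritic cell and monocyte genes, Batf3, needed for cross-presenting dendritic cells, was at 0.36 and the fractalkine receptor gene Cx3cr1 at 0.35, both with an unadjusted p under 0.05 and an adjusted p of 0.934. The 9 dendritic cell genes had a median of 0.16, with 8 above 0, and it was 0.08 without FMD mouse 7. The 7 monocyte genes had a median of -0.10, with 3 above and 4 below 0.

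Genes that respond to glucocorticoids lay lower in FMD spleens, and none passed the test. Of 14 members 13 were below 0, with a median of -0.28, and 3 had an unadjusted p under 0.05, against 317 of the 9059 genes below 0. These were Sgk1, a kinase that regulates ion transport, at -0.27, the Krueppel-like factor gene Klf9 at -0.35 and Per1, a repressor of the clock that glucocorticoids also induce, at -0.35. Sgk1 is shown by its promoter because it is the gene of the list in which the palindromic motif of the glucocorticoid receptor, AGAACA and TGTTCT with 3 bases between, was found. The window of RefSeq, from 250 bases before to 50 after the start, is at chr10:21993640-21993939 (plus strand, GRCm38.p6), and the motif in capitals begins at position -189 relative to the start.
Sgk1 promoter: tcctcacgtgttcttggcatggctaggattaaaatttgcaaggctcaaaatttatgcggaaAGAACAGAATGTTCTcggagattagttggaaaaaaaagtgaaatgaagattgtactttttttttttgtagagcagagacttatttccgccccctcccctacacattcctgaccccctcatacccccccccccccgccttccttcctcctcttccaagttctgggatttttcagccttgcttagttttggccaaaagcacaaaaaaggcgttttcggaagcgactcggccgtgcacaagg
The motif, searched on both strands, was in 0.00913% of 32851 promoter windows of this length, and in the windows of 1 of the 11 genes of the list that matched the table. A match is a description of letters, and its use in these spleens was not tested.

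Sgk1 was at 9.02, 9.08, 9.19, 9.04, 8.95 and 9.05 in FMD mice and at 9.37, 9.70, 9.29, 9.61, 9.23 and 8.78 in AL mice. Of the AL mice 5 were above all FMD mice and AL mouse 33 was below them all (95% interval of the difference -0.50 to -0.05). Per1 was at 9.92, 9.96, 10.37, 10.11, 9.98 and 10.06 in FMD mice and at 10.24, 10.26, 10.21, 10.84, 10.75 and 10.18 in AL mice. Here 5 FMD mice were below all AL mice and FMD mouse 9 was within them. The phosphatase gene Dusp1 was at -0.51 (95% interval -1.05 to 0.03) and the co-chaperone gene Fkbp5 at -0.29 (-0.85 to 0.27). Tsc22d3, which encodes the glucocorticoid-induced leucine zipper, was at -0.02 (95% interval -0.41 to 0.37). The median of the list was -0.34 without AL mouse 32, -0.32 without FMD mouse 9 as well and -0.26 with library weights, and Rasd1, described above, is not a member. Corticosterone was not among the measurements used here.

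Among 18 clock genes 12 were above 0, with a median of 0.08. Bhlhe41, a repressor of the clock, was at 0.64 (95% interval 0.08 to 1.20) and the PAR factor gene Hlf at 0.48, both with an unadjusted p under 0.05. Per1, on the other side of 0 at -0.35, also had one, and Per3 was at 0.27 (-0.04 to 0.58). FMD mouse 7 was highest for Bhlhe41 (8.82) and AL mouse 32 lowest (6.57). The mean of the clock genes was lowest in AL mouse 32 as well, at 7.47, and the median of the list was 0.00 without this mouse, so that the sign of the list rests on it. Hlf was at 0.32 without FMD mouse 9. The sources used here do not state the hour of collection.

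Genes that a fasting liver or muscle induces showed no common difference in these spleens. Of 23 tested genes of fat oxidation and the PPAR-alpha response 5 were above 0, with a median of -0.04. Ppara, which encodes PPAR-alpha itself, and the fasting genes Fgf21 and Acot1 were under the minimum and were not tested. Hadhb, a subunit of the trifunctional protein of beta-oxidation, had an unadjusted p under 0.05 at -0.20 (95% interval -0.35 to -0.04). Pdk4, a kinase that blocks the use of pyruvate in fasting, was at 8.74, 7.81, 8.60, 7.65, 8.25 and 7.56 in FMD mice and at 8.61, 8.21, 8.01, 9.20, 7.46 and 7.38 in AL mice. The ranges were largely shared, with a difference of -0.04 (95% interval -0.71 to 0.63). Cpt1a, the entry step of fatty acids into mitochondria, was at -0.05 (95% interval -0.48 to 0.38). Of 7 genes of ketone body use 6 were below 0, with a median of -0.20, which ran from -0.32 without FMD mouse 8 to -0.13 without FMD mouse 9, and was -0.10 without AL mouse 32 and FMD mouse 9.

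Lipid synthesis genes lay slightly below 0. Of 22 cholesterol synthesis genes 21 were below 0, with a median of -0.15 and none under 0.05, among them Hmgcs1 at -0.27. AL mouse 32 had the highest mean of this list (9.13, against 8.24 to 8.54 in the other AL mice). Without it the median was -0.04, and without FMD mouse 9 as well it was 0.02. Of 11 fatty acid synthesis genes 10 were below 0, with a median of -0.16 that was -0.24 without FMD mouse 8, -0.09 without FMD mouse 9 and -0.07 without both AL mouse 32 and FMD mouse 9, and the desaturase gene Fads1 was at -0.26 and the regulator Srebf1 at -0.14. The IGF carrier gene Igfbp3 was at 0.51 (95% interval -0.04 to 1.06), and the median of 12 genes of the IGF and insulin axis was 0.07, and -0.02 without FMD mouse 9. Cited2, a transcriptional coregulator and a FOXO target, was at -0.50 (unadjusted p = 0.0279 from limma, adjusted p = 0.934), and 18 FOXO factors and targets had a median of -0.07, which was above 0 without AL mouse 25 (0.03), without AL mouse 32 (0.01) and with library weights (0.02). Trib3, a target of the amino acid stress factor ATF4, was at -0.57 (95% interval -1.18 to 0.03), where AL mouse 25 was highest (7.29), and was -0.33 without this mouse. In the ATF4 list 15 of 20 genes were below 0, with a median of -0.11 that was 0.05 without AL mouse 32. Core autophagy genes had a median of -0.06 over 34 members, which ran from -0.11 without AL mouse 3 to -0.02 without AL mouse 32, where 16 of 34 were above 0. Of these Atg14 was at -0.27 and the ULK1 scaffold gene Rb1cc1 at -0.25. They were the 2 of 34 members with an unadjusted p under 0.05, near the share of 4.27% over all genes, and nothing is read from this count. The mitophagy receptor gene Bnip3 was at -0.41, with AL mouse 25 highest (7.39), and at -0.22 without this mouse.

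**Figure D4:**
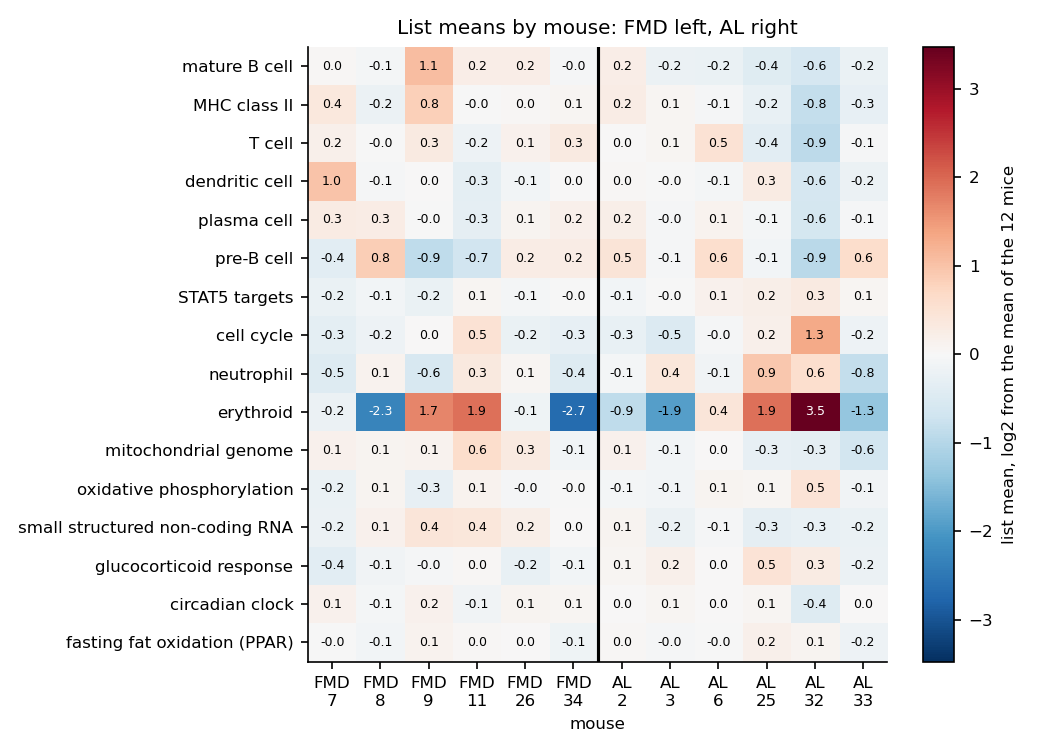
Mean rlog of 16 lists in each mouse, as the log2 distance from the mean of the 12 mice (red above, blue below), with FMD mice on the left and AL mice on the right of the line. The erythroid list spans 6.14 log2 units over the 12 mice, more than the other lists shown, and AL mouse 32 has its highest value.

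Erythroid genes differed more between the mice of a group than between the groups. Of 18 members 18 were below 0 in FMD, with a median of -0.53, and none had an unadjusted p under 0.05. Their mean was 9.55, 7.48, 11.45, 11.67, 9.62 and 7.09 in FMD mice and 8.88, 7.86, 10.18, 11.68, 13.23 and 8.43 in AL mice. Low and high mice were found in both groups, and AL mouse 32 was highest. Hbb-bs, which encodes the beta chain of adult hemoglobin, was at -0.95 with a 95% interval of -3.21 to 1.30. Without AL mouse 32 the median of the list was 0.13, above 0, and without FMD mouse 9 it was -1.02.

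Neutrophil genes had a median of -0.33, with 13 of 15 below 0 and none under 0.05, among them the granule protease genes Elane at -0.62 (95% interval -1.82 to 0.57) and Prtn3 at -0.57 and the peroxidase gene Mpo at -0.59. Their mean was between 6.11 and 7.03 in FMD mice and between 5.85 and 7.63 in AL mice, and the median was -0.13 without AL mouse 32 and FMD mouse 9. With a covariate the median was -0.01 (Gm26917), -0.03 (Xist) and -0.26 (Vpreb1 and Igll1). Cell cycle genes had a median of -0.16, with 26 of 28 below 0. It was 0.05 without AL mouse 32, whose mean of these genes (11.60) was above that of the other AL mice (9.81 to 10.47), and 0.02 with library weights.

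Genes tied to the leukemia overlapped widely between the groups. Vpreb1 and Igll1, the surrogate light chain of pre-B cells, were at -0.25 (95% interval -1.64 to 1.14) and -0.14 (-1.77 to 1.5). Igll1 was at 4.90, 6.89, 3.46, 3.65, 5.34 and 4.74 in FMD mice and at 5.26, 4.02, 6.76, 5.45, 3.20 and 5.12 in AL mice. Each group held mice near 3.5 and mice near 6.8. The median of 8 pre-B cell genes was -0.19, and it was -0.45 without AL mouse 32, -0.33 without FMD mouse 8, -0.04 without FMD mouse 9 and 0.03 with Xist as a covariate. Of the members the lowest was Erg, a transcription factor of progenitors, at -0.44 (95% interval -1.25 to 0.37). Xist was at 14.97, 15.07, 12.42, 14.33, 14.93 and 15.28 in FMD mice and at 15.48, 15.68, 15.09, 14.66, 13.88 and 15.39 in AL mice. Its difference of -0.53 (95% interval -2.08 to 1.03) was -0.11 without FMD mouse 9, which is the lowest of the 12 and also the highest in B cell genes, and the part of the leukemic share in any difference above was not tested. Targets of STAT5, a factor that BCR-ABL activates, had a median of -0.17 over 13 genes, which was -0.09 without AL mouse 32 (6 of 13 above 0), -0.09 without AL mouse 25, -0.11 without FMD mouse 9 and -0.04 with library weights. The kinase gene Pim1 was at -0.53 (95% interval -1.03 to -0.03, unadjusted p = 0.0379 from limma, adjusted p = 0.934) and the feedback inhibitor gene Cish at -0.66 (-1.41 to 0.09). Cish was at 9.62, 10.67, 9.88, 10.68, 9.998 and 10.48 in FMD mice and at 10.52, 10.82, 10.47, 11.06, 11.64 and 10.76 in AL mice, where AL mouse 32 was highest, and Pim1 was at -0.31 without this mouse.

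The same diet comparison was made in mice given vincristine, FMD + VC against AL + VC, which shares no mouse with FMD against AL. In limma 0 of 16557 genes passed (percent called 0) and 1878 (11.3%) had an unadjusted p under 0.05. Across genes the 2 diet differences had a Pearson r of 0.53, a description over genes that vary together. The test of whether the diet difference itself differed between mice with and without vincristine called 0 genes (smallest adjusted p = 0.925 in limma) and gave 504 (3.04%) with an unadjusted p under 0.05. With library weights it called 657 genes, 301 above and 356 below 0, and this was the one fit that called any. FMD + VC mouse 29 had the highest weight in it, 7.29.

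Mature B cell and MHC class II genes lay on the same side in both comparisons. The mature B cell median was 0.71 in FMD + VC against AL + VC and 0.55 in FMD against AL. The MHC class II median was 0.74 with vincristine and 0.35 without. Glucocorticoid-response genes had a median of -0.35 with vincristine and -0.28 without. Cholesterol synthesis genes had a median of 0.17 with vincristine, where 20 of 22 were above 0 against 48.9% of all genes, and -0.15 without. The latter was -0.04 without AL mouse 32 and 0.02 without FMD mouse 9 as well, where 12 of 22 were above 0. The mitochondrial genome median was -0.01 with vincristine and 0.41 without, and the median of the structured RNAs was -0.23 with it and 0.27 without. Snord15a was between 6.22 and 7.15 in FMD + VC mice and between 6.41 and 7.47 in AL + VC mice, a difference of -0.43, and the interaction was -1.27 (95% interval -1.85 to -0.70, unadjusted p = 0.000133, adjusted p = 0.925 in limma). For mt-Nd5 it was -0.66 (95% interval -1.08 to -0.24) and for Rn7s2 -1.68 (-2.85 to -0.51). None of these interactions passed the test. These RNAs were chosen with their FMD minus AL difference known, which the interaction subtracts, so that values below 0 follow in part from the choice and nothing is read from them.

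**Figure D5:**
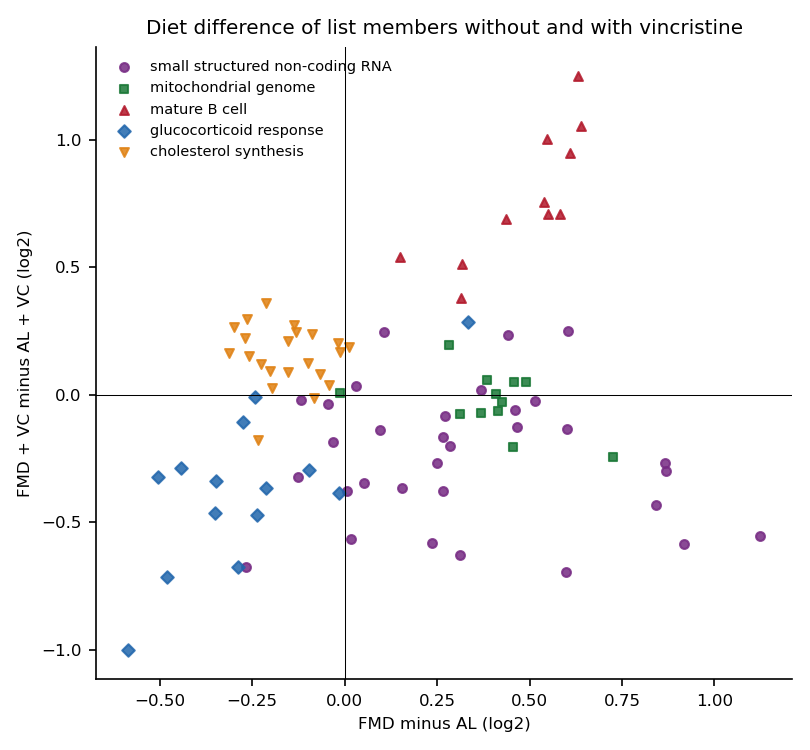
Difference of FMD minus AL (horizontal, log2) against FMD + VC minus AL + VC (vertical, log2) for the tested members of 5 lists, 1 point per gene. Mature B cell genes (red triangles) lie above 0 on both axes, most glucocorticoid-response genes (blue) below 0 on both, and cholesterol synthesis genes (orange) mostly below 0 on the horizontal and above 0 on the vertical axis.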

How the data were processed

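Total RNA of 24 spleens, 6 mice per group, was depleted of ribosomal RNA and sequenced in single reads of 50 bases. The submitters' processing notes name HISAT2 2.1.0, HTSeq 0.6.1 and DESeq2, with the builds GRCm38 and GRCh38; the gene names are mouse symbols, and the strand setting is not stated. Reads that overlapped several genes were dropped in counting, which can lower RNAs that lie within other genes. The authors deposited rlog values, which are log2 values of DESeq2 counts scaled for depth and shrunken towards the mean of a gene, so that differences of low genes are understated. Only these values were used, so that the depth of each library is unknown and no count test was run.

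Groups followed the sample labels. The 16557 of 46078 genes whose rlog averaged 3.32 or more were fitted with limma 3.58.1 in R 4.3.3 over all 24 mice, with a trend in the variance and Benjamini-Hochberg adjustment over all genes tested (threshold 0.05), as two-sided tests. The code was tested on simulated data. Figures were drawn with matplotlib 3.10.9. Nothing says whether the mice of a group shared cages or days.

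The members and gene lists were chosen with earlier results of these data known. Genes were named by a rule: the 10 above and the 10 below 0 with the smallest unadjusted p, without predicted genes and immunoglobulin or T cell receptor segments, and in each list at most 4 members with the smallest p, with any gene called in another fit and members that show what did not pass. Further members of the mitochondrial, structured RNA, erythroid, neutrophil and immune lists, Iglc2, Per3 and Gm26917 were named after their values were seen. Of the names tested 94% (15559) matched GENCODE M21, and 21 names turned into dates and 126 shared by several genes were tested but not named. Some genes that the rule picks are not reported here.

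Alternatives were no minimum, a minimum of 50 reads, quantile normalization, the 12 mice alone, library weights, no variance trend, covariates (Vpreb1 and Igll1, Xist, the erythroid mean, mouse number) and each mouse left out. The level of Gm26917 as a covariate, and leaving out AL mouse 32 with FMD mouse 9, were added after seeing the data.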

Additional observations from a re-analysis of the deposited data

Results flagged for a closer look

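In 25 of 286 groups of 6 mice looked at, the highest or lowest mouse lay far from the others by Dixon's test, which chance gives in about 1 in 20 groups. Most of them were FMD mouse 9 or AL mouse 32, and no explanation was tested.

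FMD mouse 9 was highest of the FMD mice in the mean of mature B cell genes (11.2603, against 10.1208 to 10.4024 in the other 5), and in Ms4a1 (11.7864), Bank1 (11.9249), Ighd (12.6032), Iglc2 (10.0628), H2-Ob (11.4257) and Cd3e (8.8685). It was lowest in Cox6c (9.7098), Uqcrc2 (9.7769) and Xist (12.4254, against 14.3339 to 15.278). FMD mouse 7 was highest in the mean of dendritic cell genes (8.1085, against 6.798 to 7.1477) and in Cd4 (11.487), and lowest in Trib3 (4.76). FMD mouse 34 was lowest in Rmrp (15.0481, against 15.6221 to 15.9345).

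AL mouse 32 was highest of the AL mice in the means of cell cycle (11.6039, against 9.8109 to 10.4692), cholesterol synthesis (9.1285), heat shock (9.2202) and mTORC1 and AMPK genes (9.1795). It was lowest in the means of circadian clock (7.469), naive T cell (8.7953), plasma cell (8.7017) and MHC class I genes (10.894) and in Erg (8.2174). AL mouse 25 was highest in the mean of FOXO factors and targets (10.4954) and in Bnip3 (7.3902, against 5.9425 to 6.391).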

How the results depend on the processing

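No paired analysis was possible because the mouse numbers differ between the groups. Against 0 genes called in FMD against AL by limma, the fit of the 12 mice alone called 1 and library weights 2. Genes with an unadjusted p under 0.05 (707) numbered 1459 with no minimum, 449 with a minimum of 50 reads, 1305 with library weights, 383 with Gm26917 as a covariate, 380 without AL mouse 32 and FMD mouse 9, and 380 (without FMD mouse 9) to 893 (without AL mouse 2) with 1 mouse left out. For the interaction with vincristine, library weights called 657 genes instead of 0, and the unadjusted count (504) was 1110 with no minimum, 4336 with weights, 314 with mouse number as a covariate, and 369 to 757 (without AL mouse 32) with 1 mouse left out. Genes without overlap (38) were 120 with no minimum, 24 with a minimum of 50, 115 without both mice, and 39 to 111 with 1 mouse left out, where fewer mice make separation easier by construction. Of 90 named genes 82 kept their sign in all fits. Most were named for a small p in this contrast or after their values were seen, and the fits share most of their mice. Keeping the sign therefore follows in part from the choice, and nothing is read from this count. mt-Co3 changed sign at 0.0049 (quantile normalization), 0.0027 (Vpreb1 and Igll1), 0.0527 (Xist), 0.0426 (erythroid mean), 0.0695 (Gm26917) and 0.214 (without both mice), and ran from -0.1427 to 0.1532 with 1 mouse left out. Tsc22d3 was at 0.0536 with quantile normalization (-0.112 to 0.0473 with 1 mouse left out), Vpreb1 at 0.1302 with Xist, and Igll1 at 0.0772 with weights, 0.2834 with Xist and 0.0384 with Gm26917 (-0.5483 to 0.222). Cpt1a was at 0.0058 with quantile normalization and 0.014 with Xist (-0.18 to 0.0189), Pdk4 ran from -0.1939 to 0.1707, and Rn7sk was at 0 with quantile normalization and -0.0037 without both mice (-0.0241 to 0.0825). Gm26917 was at 0 with quantile normalization, which sets the highest gene of each mouse equal by construction. The cause of the other shifts was not tested. The unknown depth limits what can be said of low genes.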
